A study of Capra hircus with 27 samples.

Results

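The genes described here are 100 goat genes whose level was lowest in the 600 m population in heart, lung and skeletal muscle alike. They were taken from 22131 genes, of which 17671 carry an annotation ID that begins with GOAT_. Of these, 10487 had a mean FPKM above 0.5 in each tissue, and 9602 also had tissue means of log2(FPKM + 1) that lay within 3 of each other, and these are called eligible genes. FPKM is the number of sequenced fragments, scaled to the length of the transcript and to the mapped fragments of the library. For each eligible gene and tissue, the rise from 600 m was computed as the smaller of the 2000 m and the 3000 m group mean minus the 600 m group mean, and the score of the gene was the smallest rise among the 3 tissues. The 100 highest scores made the list, so every comparison of its members with 600 m was fixed by the choice and is given as a description. Counts of members called by a fit against 600 m, with or without single libraries, are part of that description and test nothing about the list. The same holds for counts of members with an unadjusted p under 0.05 against 600 m.

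RNA sequencing covered 27 libraries from goats (Capra hircus) about 3 years old, with 3 libraries for each tissue and altitude. The goats belonged to indigenous populations of Ya'an in Sichuan province (600 m), Zhaotong in Yunnan province (2000 m) and the A'ba Tibetan autonomous area in Sichuan (3000 m), and none of the groups had a treatment. The study's methods describe its low- and high-altitude animals as unrelated adult females, and the sex of the 2000 m goats was not given in the sources used here. Altitude and population coincide, so the effect of altitude and other differences between the populations cannot be told apart. The labels give no sequencing batch, and they do not say whether equal replicate numbers in different tissues mark 1 animal. By the study's methods, its low- and high-altitude animals each gave all tissues, so tissues at 600 m and 3000 m share goats. Skeletal muscle replicates 1 and 2 at 600 m differed by a robust SD of 0.0849 on the log2 scale, against 0.193 to 0.471 for the 26 other replicate pairs, and were averaged and counted as 1 sample. This left 26 samples, with n = 2 for muscle at 600 m and n = 3 for every other group. The absolute depth is unknown, and the relative depth, read from the step of the lowest FPKM values, was 0.809 to 1.14 at 600 m, 0.906 to 1.27 at 2000 m and 0.815 to 1.20 at 3000 m.

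With rising altitude the partial pressure of oxygen falls, and animals that live there take up and deliver oxygen under a smaller gradient. The lung takes oxygen into the blood, the heart drives the circulation, and skeletal muscle consumes oxygen at a rate that follows its work. Cells respond to low oxygen through hypoxia-inducible factors, which raise transcription of genes for glycolysis, vessel growth and red cell formation, among others. The table of goat gene names at hand was made for another assembly (ARS1.2) and held 0 of the 22131 IDs, so the members could not be assigned to such pathways, their tissue labels could not be checked against marker genes, and 98 of the 100 members are given by their rank in score only. Members and eligible genes were split almost alike between ID prefixes, with 52 GOAT_ENSP and 48 GOAT_ENSBTAP IDs among the members and 4743 and 4859 among the eligible genes.

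The scores ran from 1.09 for rank 1 to 0.482 for rank 100, on the log2(FPKM + 1) scale. The cut did not fall in a gap, since ranks 98, 99 and 100 scored 0.488, 0.482 and 0.482 and the 3 genes just outside scored 0.478 each. A score above 0 was found for 1308 eligible genes (13.6%). The opposite pattern, with the highest mean at 600 m in all 3 tissues, was found for 2219 eligible genes (23.1%), and 231 of those exceeded the score of rank 100 in that direction. Among genes whose ID begins with goat_GLEAN, which the rule leaves out, 699 passed the same filters and 24 scored at least as high as rank 100.

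The mean FPKM of the members over all samples ran from 1.07 to 590.68, with a median of 6.95 against 10.04 for eligible genes. At 600 m the median member stood at 2.77 to 3.41 FPKM in the heart samples, at 4.14 to 7.28 in the lung samples and at 1.90 to 2.73 in the muscle samples. At 2000 m the corresponding medians were 7.74 to 9.13, 11.3 to 12.4 and 5.29 to 5.89 FPKM, and at 3000 m they were 6.94 to 7.30, 9.33 to 12.1 and 4.64 to 7.07 FPKM. In each tissue every 600 m sample therefore lay below every sample from the higher populations. The medians of all eligible genes at 600 m overlapped with those of both higher populations in heart and lung. In muscle they ran from 7.30 to 8.30 FPKM at 600 m, above all 3 samples at 2000 m (5.95 to 7.02 FPKM) and in overlap with 3000 m (6.30 to 7.62 FPKM). In these bulk tissues, fewer cells of a type and less RNA per cell cannot be told apart.

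**Figure D1:**
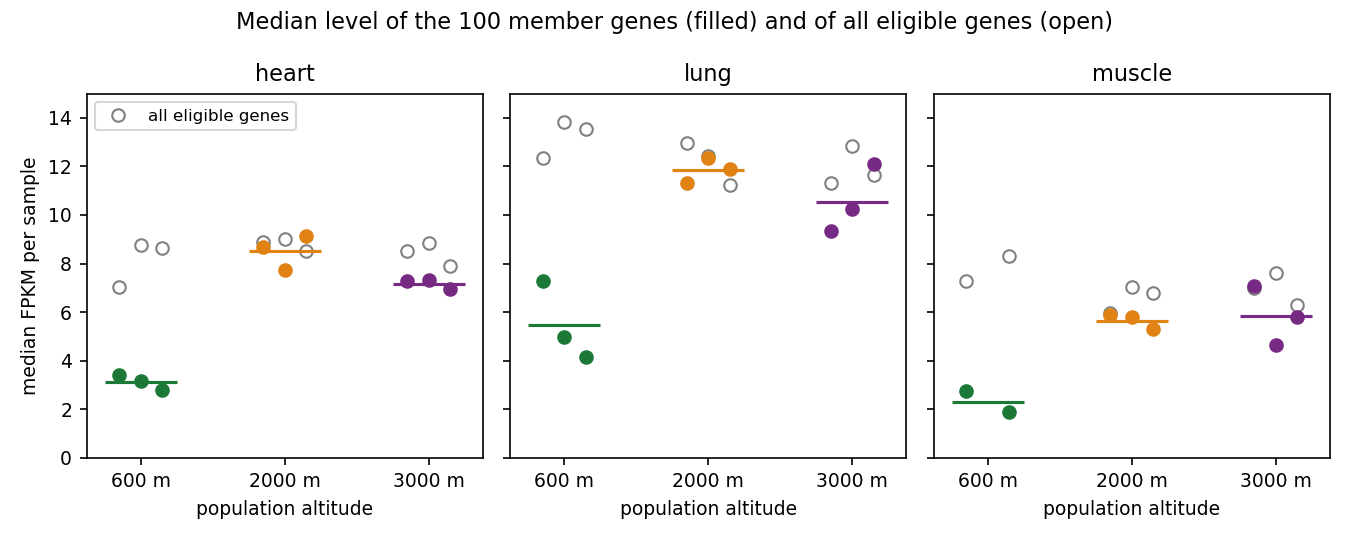
Median FPKM of the 100 members (filled points) and of all eligible genes (open points) in each sample, by altitude of the population, in heart, lung and muscle, with horizontal bars at the mean of the member medians of each group. The filled points at 600 m lie below 3.5 FPKM in heart, between 4.14 and 7.28 FPKM in lung and below 3 FPKM in muscle, under every filled point at 2000 m and 3000 m of the same tissue.

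Summed over the list, the members took 0.151% to 0.191% of all FPKM in heart at 600 m, against 0.384% to 0.440% at 2000 m and 0.302% to 0.420% at 3000 m. In lung the shares were 0.298% to 0.472%, 0.695% to 0.876% and 0.768% to 0.949% in the same order. In muscle they were 0.158% to 0.183%, 0.302% to 0.372% and 0.288% to 0.502%. The shares at 600 m did not overlap with those of the higher populations in any of the tissues. Many members were low at 600 m, where 26 had a group mean below 1 FPKM in heart, 8 in lung and 30 in muscle, against 0 in each tissue at 2000 m and 1, 1 and 2 at 3000 m.

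The highest score belonged to GOAT_ENSBTAP00000049587. In heart its level at 600 m was 0.8002, 0.359 and 0.180 FPKM in replicates 1 to 3, against 3.17, 3.49 and 2.45 FPKM at 2000 m and 2.47, 2.14 and 1.55 FPKM at 3000 m. In lung the level was 0.981, 1.20 and 1.21 FPKM at 600 m, 4.81, 5.69 and 4.07 FPKM at 2000 m and 2.61, 3.42 and 4.85 FPKM at 3000 m. In muscle it was 0.614 (the mean of 0.442 and 0.786) and 0.817 FPKM at 600 m, 4.39, 3.40 and 3.44 FPKM at 2000 m and 5.28, 2.64 and 4.14 FPKM at 3000 m. Every 600 m sample was thus below every sample of the higher populations in all 3 tissues, and the highest 600 m value of the gene, 1.21 FPKM in lung, was below the lowest value at the other altitudes, 1.55 FPKM in heart. On the log2(FPKM + 1) scale, which understates the change of low genes, its difference from 600 m at 2000 m was 1.495 (SE 0.20) in heart, 1.45 (SE 0.21) in lung and 1.46 (SE 0.26) in muscle. At 3000 m the difference was 1.09 (SE 0.20), 1.09 (SE 0.21) and 1.52 (SE 0.26).

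The next score belonged to GOAT_ENSBTAP00000007931. Its level in heart was 2.19, 1.37 and 2.11 FPKM at 600 m, 7.04, 5.61 and 6.66 FPKM at 2000 m and 7.43, 6.66 and 3.56 FPKM at 3000 m. In lung it was 1.25, 2.92 and 1.85 FPKM at 600 m, 4.72, 3.51 and 10.3 FPKM at 2000 m and 5.31, 2.95 and 7.36 FPKM at 3000 m. In muscle it was 0.183 and 0.136 FPKM at 600 m, 1.41, 4.96 and 1.59 FPKM at 2000 m and 2.01, 0.280 and 1.62 FPKM at 3000 m. The 600 m samples were below all samples of both higher populations in each tissue, while the 2000 m and 3000 m samples overlapped in all of them. Replicate 2 at 3000 m came close to the 600 m samples in lung (2.95 against 2.92 FPKM) and was far below the other 3000 m samples in muscle. Its mean at 2000 m was 6.44 ± 0.744 FPKM in heart, 6.17 ± 3.603 FPKM in lung and 2.65 ± 1.998 FPKM in muscle (SD, n = 3), against 1.89 ± 0.453 FPKM (n = 3), 2.01 ± 0.845 FPKM (n = 3) and 0.159 ± 0.033 FPKM (n = 2) at 600 m.

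**Figure D2:**
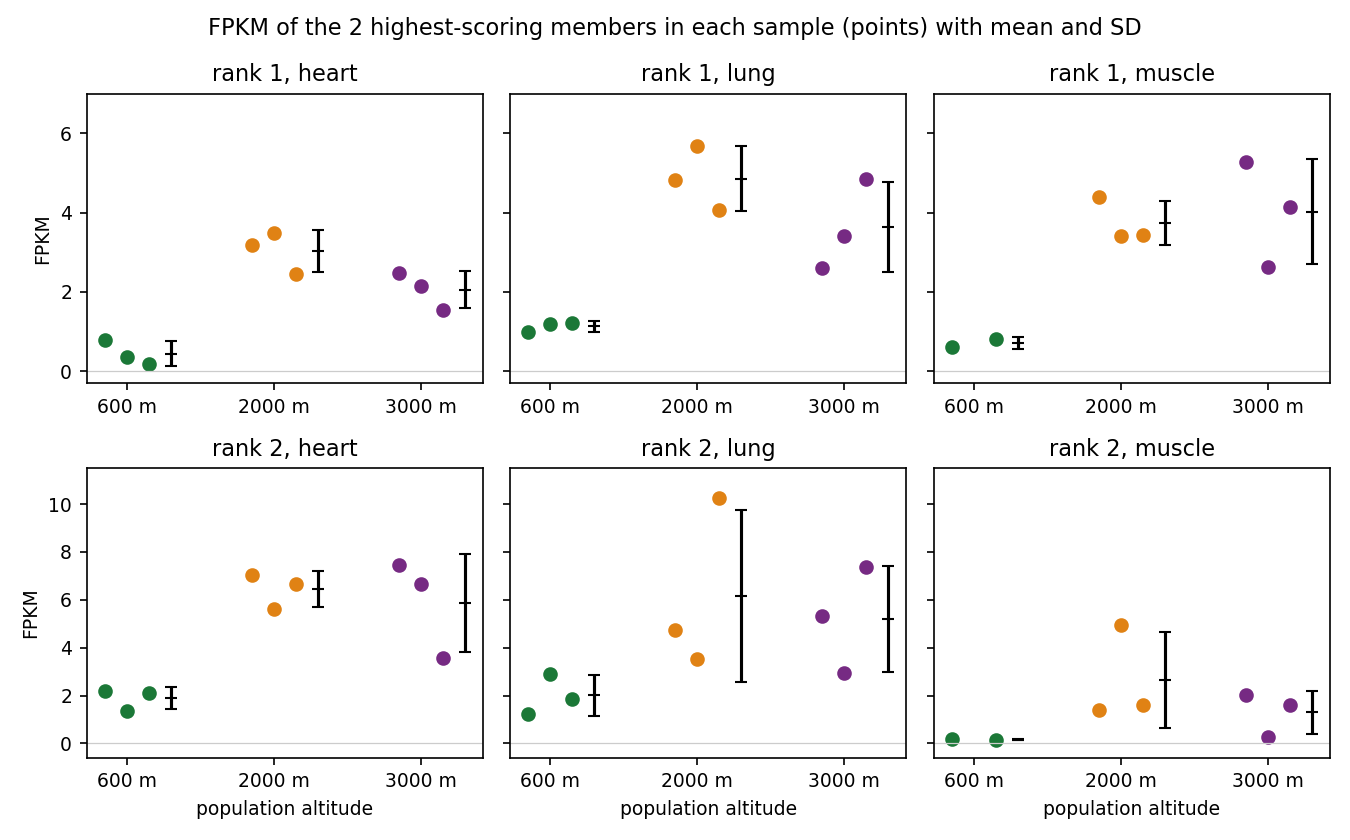
FPKM of the highest-scoring gene (rank 1, top row) and of the next (rank 2, bottom row) in each sample by altitude of the population, with the mean and SD of each group beside the points (n = 2 for muscle at 600 m, otherwise n = 3). Rank 1 stays at or below 1.21 FPKM in all 600 m samples and at or above 1.55 FPKM in all others, and rank 2 has 1 sample in muscle at 3000 m, at 0.280 FPKM, close to the 600 m level.

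Between the 2 higher populations, no difference of either gene passed the test. For the gene of rank 1, the difference between 3000 m and 2000 m was -0.40 (SE 0.20, adjusted p = 0.392) in heart, -0.36 (SE 0.21, adjusted p = 0.869) in lung and 0.05 (SE 0.23, adjusted p = 0.965) in muscle (limma, log2 scale). For the gene of rank 2 it was -0.16 (SE 0.23, adjusted p = 0.803), -0.16 (SE 0.39, adjusted p = 0.961) and -0.63 (SE 0.40, adjusted p = 0.697). Both genes did differ between tissues, in a fit that took all samples as independent although tissues share goats. Averaged over the altitudes, the gene of rank 1 was lower in heart than in lung by -0.57 (SE 0.12, adjusted p = 0.000197) and lower than in muscle by -0.40 (SE 0.13, adjusted p = 0.00978), while lung and muscle were 0.17 apart (SE 0.13, adjusted p = 0.213). The gene of rank 2 was higher in heart than in muscle by 1.36 (SE 0.23, adjusted p = 3.33e-05) and higher in lung than in muscle by 1.26 (SE 0.23, adjusted p = 3.42e-05), with heart and lung 0.10 apart (SE 0.22, adjusted p = 0.687).

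Members of lower rank showed how far the pattern varied. These were picked after their values were seen, to span the level and the spread of the list. Rank 61 was the most abundant member, with 152, 72.8 and 178 FPKM in heart at 600 m, 445, 218 and 331 FPKM at 2000 m and 939, 442 and 231 FPKM at 3000 m. In heart, all 600 m samples of rank 61 lay below all samples of the higher populations, which overlapped with each other. In lung, however, its replicate 1 at 600 m (699 FPKM) was above all 3 samples at 2000 m (684, 679 and 502 FPKM). Rank 20 was the most abundant member in lung at 3000 m, with 447, 469 and 1178 FPKM at 600 m, 788, 1217 and 1887 FPKM at 2000 m and 1796, 1389 and 1278 FPKM at 3000 m. Here replicate 3 at 600 m lay within the range of the 2000 m samples.

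Rank 3 had a single high 600 m sample in heart and in lung. Its heart levels at 600 m were 40.1, 14.2 and 9.83 FPKM, against 24.5, 67.7 and 60.5 FPKM at 2000 m and 69.7, 37.7 and 68.5 FPKM at 3000 m, so that replicate 1 at 600 m overlapped with both higher populations. Its lung levels were 48.1, 12.3 and 20.8 FPKM at 600 m, 36.0, 69.7 and 62.8 FPKM at 2000 m and 62.0, 31.9 and 76.6 FPKM at 3000 m, again with an overlap through replicate 1. Rank 9 was among the tightest, with 6.14, 5.20 and 4.72 FPKM in heart at 600 m, 17.1, 18.2 and 16.3 FPKM at 2000 m and 9.36, 11.1 and 10.2 FPKM at 3000 m, so that all 3 altitudes were separate.

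A few members were listed at exactly 0 in some samples, which may be a failed estimate as well as an absence of fragments. This held for 7 members, 5 of them only in samples from 600 m. Rank 30 was listed at 0 in all 3 lung samples at 600 m, at 1.22, 2.82 and 1.69 FPKM at 2000 m, and at 2.50, 0 and 2.44 FPKM at 3000 m. Rank 7 was listed at 0 in heart replicate 2 and muscle replicate 3 at 600 m, and its lung levels of 4.91, 0.230 and 0.125 FPKM at 600 m and 11.1, 1.32 and 36.1 FPKM at 3000 m overlapped. Rank 50 was listed at 0 in samples of all altitudes in lung, where its levels were 0, 0 and 2.18 FPKM at 600 m, 4.67, 0 and 1.51 FPKM at 2000 m and 0, 2.33 and 2.23 FPKM at 3000 m.

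**Figure D3:**
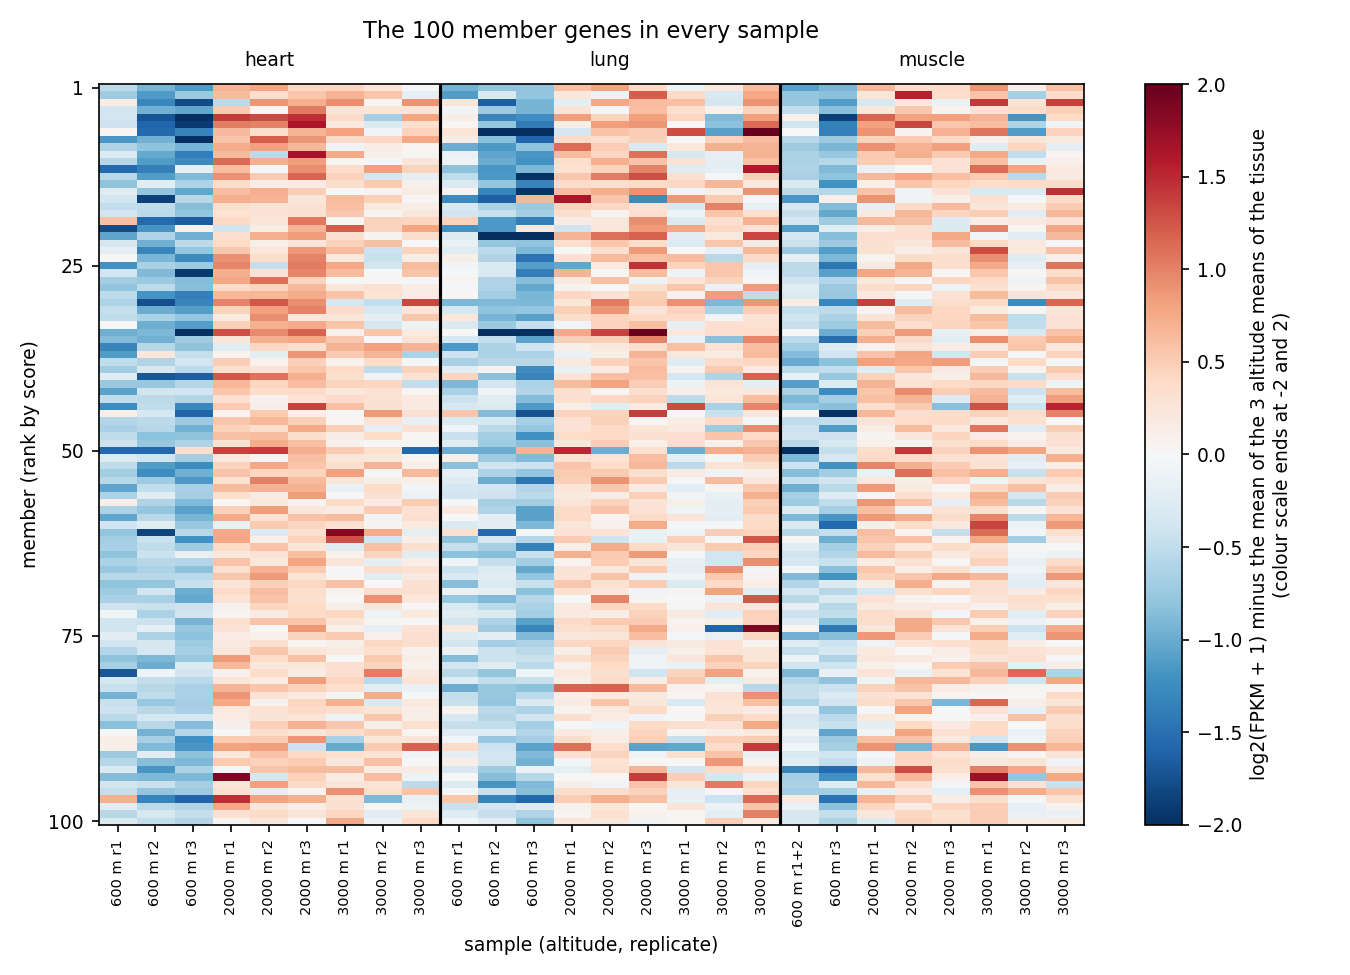
Each row is 1 of the 100 members, ordered by score, and each column 1 of the 26 samples, grouped by tissue and altitude. Colour gives log2(FPKM + 1) minus the mean of the 3 altitude means of the tissue, from blue (below) to red (above), and the 600 m columns are mostly blue in all tissues, with paler columns for replicate 1.

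As ratios of group mean FPKM, the median member was 2.87 times higher at 2000 m than at 600 m in heart, 2.02 times in lung and 2.34 times in muscle. The ratios at 3000 m were 2.33, 1.90 and 2.23. Over the eligible genes the median ratios were 1.06, 0.919 and 0.871 at 2000 m and 1.04, 0.900 and 0.907 at 3000 m. The ratios of single members spread from 1.45 to 12.6 in heart at 2000 m, where 81 members were above 2 and 24 above 4, and from 1.29 to 7.11 in lung, where 50 were above 2 and 7 above 4 (rank 30, at 0 in lung at 600 m, has no ratio there). In muscle at 2000 m they spread from 1.48 to 16.7, with 69 above 2 and 11 above 4. The tissue with the smallest rise, which set the score, was heart for 14 members, lung for 43 and muscle for 43.

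On the log2(FPKM + 1) scale the median change of the members from 600 m to 2000 m was 1.18 in heart, 0.91 in lung and 0.88 in muscle, and that to 3000 m was 0.93, 0.72 and 0.79. The medians over all genes tested were 0.13, -0.05 and -0.12 at 2000 m and 0.08, -0.08 and -0.08 at 3000 m. In the limma fit over all genes of a tissue, 86 members were called higher at 2000 m in heart, where 16.3% of all genes tested were, and 61 were called higher at 3000 m, where 7.38% were. In lung 24 members (2.22% of all genes) were called higher at 2000 m and 12 (0.73%) at 3000 m. In muscle 22 members (1.93%) were called higher at 2000 m and 10 (0.772%) at 3000 m. Since the rule used these contrasts, the shares are set side by side and nothing is read from them. The calls at 2000 m covered all 3 tissues for 11 members (0.222% of genes tested in all tissues), those at 3000 m for the gene of rank 1 alone (0.08%), and 9 members were called in no tissue at either altitude.

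The overlap of samples was counted for each member. Every 600 m sample was below every sample of both higher populations for 78 members in heart (15.1% of eligible genes), for 49 in lung (5.7%) and for 74 in muscle (8.75%), where 600 m had only 2 samples. It was so in all 3 tissues for 37 members (1.18%), in 2 tissues for 35 (4.94%), in 1 tissue for 20 (16.1%) and in none for 8 (77.8%). For 98 members the lowest of the 26 values was in a 600 m sample (31.9% of eligible genes), and for 0 members was the highest value in one (48.7%). The rule used these values as well, so these counts too are a description. In lung the count without overlap was 79 when replicate 1 at 600 m was left out. Leaving out a sample cannot lower this count, and the share of eligible genes without that sample was not computed.

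The counts of calls in lung and muscle depended on single libraries, and the share of all genes called moved in the same refits. Of the lung libraries, leaving out replicate 1 at 600 m raised the calls from 24 to 47 at 2000 m and from 12 to 35 at 3000 m, while the share of all genes called higher went from 2.22% to 5.27% and from 0.73% to 3.1%. Leaving out replicates 2 or 3 at 600 m, or replicates 1 or 2 at 2000 m, brought both counts to 0, and leaving out replicate 3 at 2000 m gave 1 and 0. Leaving out replicates 1, 2 or 3 at 3000 m gave 0, 1 and 0 calls at 3000 m. In these lung fits with 0 or 1 member called, 0.0215% to 0.0502% of all genes were called higher at 2000 m and 0% to 0.136% at 3000 m. Where limma made 0 calls in lung, 64 to 74 members were higher with an unadjusted p under 0.05 at 2000 m and 44 to 68 at 3000 m. The full fit gave 82 and 74. The members were chosen for these contrasts, so such counts test nothing. In that full fit, 29.1% and 26.6% of all genes had such a p in either direction, and the shares in the refits were not computed. In muscle, leaving out replicate 2 at 3000 m raised the calls to 36 at 2000 m and 33 at 3000 m, beside 2.96% and 3.03% of all genes. Leaving out replicate 3 at 600 m, which left 1 sample there that was assumed to vary like the other groups, gave 2 and 1 calls, beside 0.0587% of all genes at both altitudes. Leaving out replicates 1, 2 or 3 at 2000 m gave 4, 3 and 2 calls at 2000 m and 4, 4 and 2 at 3000 m, while leaving out replicates 1 or 3 at 3000 m gave 14 and 9 at 2000 m and 0 and 1 at 3000 m (51 members with an unadjusted p under 0.05 where limma called 0). In these 5 muscle fits the share of all genes called higher was 0.185% to 1.12% at 2000 m and 0.0839% to 0.487% at 3000 m. In the full muscle fit at 3000 m, 73 members and 22.8% of all genes had an unadjusted p under 0.05. In heart the count at 3000 m fell from 61 to 31 without replicate 2 at 600 m, to 22 without replicate 3 at 600 m, to 26 without replicate 3 at 3000 m and to 0 without replicate 1 at 3000 m, when 83 members had an unadjusted p under 0.05 against 91 in the full limma fit. The shares of all genes called higher in these 4 heart fits were 2.76%, 1.85%, 1.92% and 0.0972%. In the full heart fit at 3000 m, 31.6% of all genes had an unadjusted p under 0.05. The call of the rank 1 gene in lung at 3000 m was lost in each of these lung fits except that without replicate 1 at 600 m.

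The scaling between libraries changed the background. Of all genes called in heart at 2000 m, 72.5% were higher than at 600 m. With median-of-ratios scaling this share was 50.05%, and with quantile normalization it was 49.1%. In the same order the shares were 66.3%, 52.2% and 47.1% in heart at 3000 m, 43.5%, 58.0% and 60.2% in lung at 2000 m and 25.8%, 55.7% and 62.6% in lung at 3000 m. In muscle they were 32.7%, 44.7% and 49.3% at 2000 m and 37.1%, 36.6% and 51.9% at 3000 m. These scalings moved the median of all genes at 2000 m by -0.12 and -0.14 for heart, and by 0.16 and 0.11 for muscle, on the log2 scale. These shifts are smaller than the rise of at least 0.482 by which each member was chosen, so the direction of the members against 600 m under another scaling is no check of the list.

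The 2 higher populations were compared with each other, a contrast that the rule did not use directly. It takes the smaller of both rises, however, so the contrast is not fully independent of the choice. In limma, 0 members were called between 3000 m and 2000 m in heart, lung or muscle, where 0.00809%, 0% and 0.00839% of all genes tested were called. An unadjusted p under 0.05 was found for 21 members in heart (19 lower and 2 higher at 3000 m), for 4 in lung (all lower) and for 9 in muscle (6 lower and 3 higher), against 14.5%, 5.78% and 8.82% of all genes. The median difference of the members was -0.25 in heart, -0.15 in lung and -0.09 in muscle on the log2 scale, beside -0.06, -0.03 and 0.05 for all genes. The mean at 2000 m was above that at 3000 m for 83 members in heart (58.6% of eligible genes), 66 in lung (55.7%) and 60 in muscle (41.2%). It was above in all 3 tissues for 42 members (18.7% of eligible genes) and below in all 3 for 6 (13.9%). In muscle the median difference was 0.09, and 42 members had the higher mean at 2000 m, when replicate 2 at 3000 m was left out.

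For some members the samples of the 2 higher populations were separate, though none passed the test. Every 2000 m sample was above every 3000 m sample for 26 members in heart (15.9% of eligible genes), 9 in lung (7.96%) and 8 in muscle (5.64%). The reverse held for 2 members in heart (8.78%), 0 in lung (2.35%) and 3 in muscle (9.91%). Rank 9, whose heart values are given above, had the smallest adjusted p in heart, with a difference of -0.70 (SE 0.13, limma adjusted p = 0.122). Its muscle levels were 44.5, 38.5 and 41.8 FPKM at 2000 m and 19.5, 31.6 and 20.3 FPKM at 3000 m, a difference of -0.81 (SE 0.22, limma adjusted p = 0.389), while in lung the samples overlapped. Rank 3 had the opposite order in muscle, with 28.3, 40.9 and 32.9 FPKM at 2000 m and 96.7, 43.4 and 93.9 FPKM at 3000 m, and its difference of 1.10 (SE 0.31, limma adjusted p = 0.39) was the highest of the members there. An interaction contrast in limma, which asks whether the difference between 3000 m and 2000 m itself varied with the tissue, called 0 members for heart against lung, heart against muscle and lung against muscle, and 0% of all genes. An unadjusted p under 0.05 was found for 5, 2 and 4 members, against 7.39%, 8.21% and 7.42% of all genes.

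The rule limits how far the tissues may lie apart but not which of them is highest. Averaged over altitudes, 69 members differed between heart and lung in limma, of which 51 were higher in lung and 18 in heart, beside 82.6% of all genes tested. Between heart and muscle 57 members differed, 46 of them higher in heart and 11 in muscle, beside 57.9% of all genes. Between lung and muscle 75 members differed, 62 of them higher in lung and 13 in muscle, beside 85.3% of all genes. The mean level was highest in lung for 63 members, in heart for 19 and in muscle for 18, beside 65.6%, 20.4% and 14% of eligible genes. It was lowest in muscle for 58 members, in lung for 23 and in heart for 19, beside 57.1%, 17.6% and 25.3% of eligible genes. Ranks 10 and 20, chosen after their values were seen, differed most between lung and another tissue. Heart minus lung was -2.62 (SE 0.25, limma adjusted p = 2.91e-09) for rank 10 on the log2 scale, and lung minus muscle was 3.03 (SE 0.27, limma adjusted p = 6.8e-10) for rank 20. Rank 10 stood at 271, 142 and 132 FPKM in lung at 600 m and at 39.4, 22.9 and 17.6 FPKM in heart at 600 m.

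The pattern was also read in libraries that the choice had not used. The rule was run with 2 tissues at a time, and the 100 genes with the highest scores were then read in the third. Of the genes chosen in lung and muscle, 94 passed the filter on low values in heart, and 67 of these (71.3%) were called higher in heart at 2000 m, where 16.3% of all genes were, and 44 (46.8%) at 3000 m, where 7.38% were. Of the genes chosen in heart and muscle, 95 were tested in lung, and 11 (11.6%) were called higher at 2000 m beside 2.22% of all genes, and 3 (3.16%) at 3000 m beside 0.73%. Of the genes chosen in heart and lung, 97 were tested in muscle, and 14 (14.4%) were called higher at 2000 m beside 1.93% of all genes, and 6 (6.19%) at 3000 m beside 0.772%. These lists held 64, 39 and 44 of the 100 members. Of the tested genes that were not members, 11 and 5 of 30 were called higher in heart at 2000 m and 3000 m. In lung 1 and 0 of 56 were, and in muscle 3 and 1 of 53. Membership used all 3 tissues, so this split depends on the tissue that was read.

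**Figure D4:**
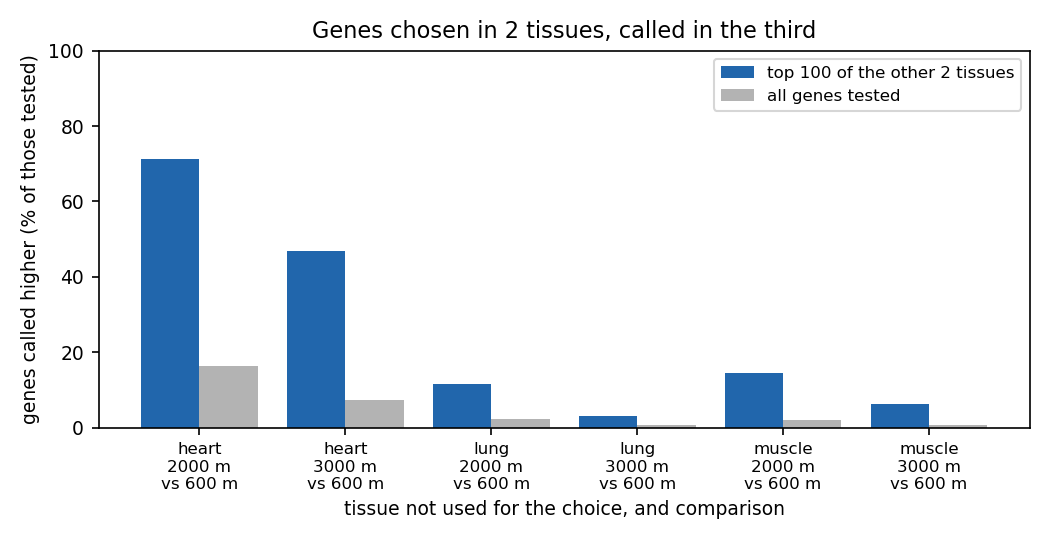
Percent of genes called higher than at 600 m by limma in the tissue that the choice did not use, for the 100 genes chosen in the other 2 tissues (blue, of those tested) and for all genes tested (grey). The blue bars reach 71.3% and 46.8% in heart and lie between 3.16% and 14.4% in lung and muscle, above the grey bar of the same comparison in each case.

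Most of these genes had the same direction in the tissue that was left out. The mean was above that at 600 m for 91 of 94 genes in heart at 2000 m and 90 at 3000 m, for 84 and 87 of 95 in lung, and for 91 and 89 of 97 in muscle, where 1 gene was called lower at 2000 m. On the log2 scale, the median changes of the chosen genes at 2000 m and 3000 m were 1.11 and 0.83 for heart, 0.85 and 0.63 for lung, and 0.73 and 0.57 for muscle. Those of all genes tested were 0.13 and 0.08, -0.05 and -0.08, and -0.12 and -0.08. By the study's methods, its low- and high-altitude animals each gave all tissues, so at 600 m and 3000 m the tissues share goats. Whether this held at 2000 m was not given. Deviations of same-numbered heart and lung samples from their group means correlated over genes at 0.0829 to 0.532. The libraries read in the third tissue are therefore not independent of those used for the choice. The 2000 m and 3000 m comparisons also share their 600 m samples.

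These counts, too, moved with single libraries, and the share of all genes called higher moved in the same refits, as given above for muscle. In the full fits, an unadjusted p under 0.05 in either direction was found for 31.6% of all genes in heart at 3000 m. The shares were 29.1% and 26.6% in lung at 2000 m and 3000 m, and 27.2% and 22.8% in muscle. In heart at 3000 m, leaving out replicates 2 or 3 at 600 m gave 22 and 17 calls, beside 2.76% and 1.85% of all genes. Leaving out replicates 1, 2 or 3 at 3000 m gave 0, 29 and 21, beside 0.0972%, 4.29% and 1.92%. In lung, leaving out replicate 1 at 600 m gave 37 calls at 2000 m and 28 at 3000 m, beside 5.27% and 3.1% of all genes. Leaving out replicates 2 or 3 at 600 m or any of the 3 replicates at 2000 m gave 0 at both altitudes. In those fits 0.0215% to 0.0502% of all genes were called higher at 2000 m and 0% to 0.043% at 3000 m. Leaving out lung replicates 1 or 3 at 3000 m gave 7 and 17 calls at 2000 m, beside 1.27% and 2.42% of all genes. Leaving out any of the 3 gave 0 at 3000 m, beside 0.0287% to 0.136%. In muscle, leaving out replicate 3 at 600 m gave 0 at both altitudes, leaving out replicates 1, 2 or 3 at 2000 m gave 3, 2 and 1 calls at 2000 m and 3, 3 and 1 at 3000 m, and leaving out replicates 1, 2 or 3 at 3000 m gave 9, 22 and 5 at 2000 m and 0, 17 and 0 at 3000 m. Without the averaged muscle replicates 1 and 2 at 600 m the count at 3000 m was 10. Where limma made 0 calls, the genes with an unadjusted p under 0.05 numbered 59 in heart, 24 to 47 in lung and 22 to 35 in muscle, against 67 (heart, 3000 m), 51 and 43 (lung) and 56 and 40 (muscle) in the full fits.

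Within the 600 m population, the members were not equally low in every sample. The highest of the 600 m values was in replicate 1 for 56 members in heart (18.6% of eligible genes), for 69 in lung (28.5%) and, taking replicates 1 and 2 as 1 sample, for 69 in muscle (35.3%). It was so in all 3 tissues for 34 members (5.38% of eligible genes). The labels do not tie these samples to 1 animal, and replicate 1 was singled out after the data were seen. In the median member, replicate 1 lay above the group mean by 0.13 in heart, 0.29 in lung and 0.11 in muscle on the log2 scale, while the median eligible gene lay at -0.14, -0.06 and -0.07. The samples in which the members were least low were thus those in which other genes tended to be lower.

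Within the 3000 m population, the lowest value was counted in the same way. In heart it was in replicate 2 for 44 members (28.4% of eligible genes), in replicate 3 for 37 (50.4%) and in replicate 1 for 19 (21.1%). In lung it was in replicate 1 for 45 members (41.5%), in replicate 2 for 41 (20%) and in replicate 3 for 14 (38.4%). In muscle it was in replicate 2 for 67 members (24.8%), in replicate 3 for 17 (49.2%) and in replicate 1 for 16 (25.7%). Replicate 2 was the lowest in all 3 tissues for 28 members (4.52%), and here too the labels do not tie equal numbers to 1 animal. The median member in replicate 2 lay at -0.038, -0.075 and -0.27 from the group mean in heart, lung and muscle on the log2 scale, but heart replicate 3 (-0.044) and lung replicate 1 (-0.13) were lower still. Replicate 3 in lung and replicate 1 in muscle were the samples in which the members stood highest, at 0.23 and 0.21. The relative depth of the heart samples at 600 m (0.809 to 0.890) was below that at 2000 m (0.944 to 0.974) and overlapped with that at 3000 m (0.815 to 0.924), while those of lung and muscle overlapped between 600 m and both other altitudes, and the part of depth in these patterns was not tested.

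**Figure D5:**
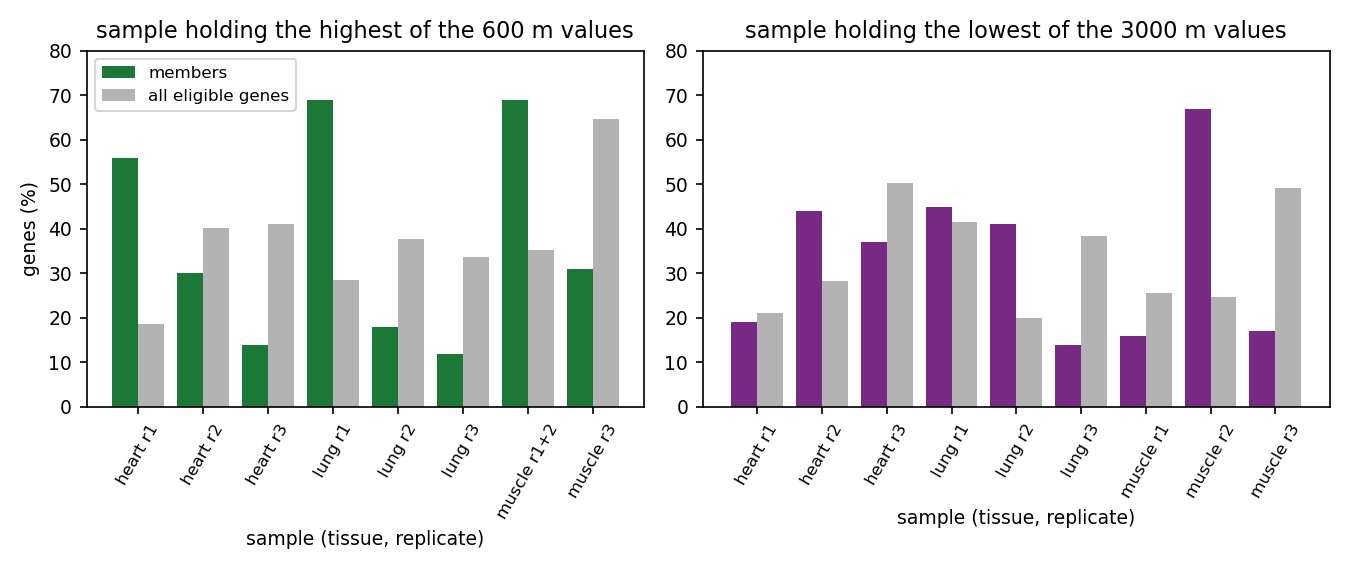
Percent of the 100 members (coloured) and of all eligible genes (grey) whose highest value among the 600 m samples (left) or lowest value among the 3000 m samples (right) of a tissue was in the sample named below the bar. On the left the members exceed the eligible genes in replicate 1 of each tissue, and on the right in replicate 2 of each tissue and, by less, in replicate 1 of lung.

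The spread between replicates was described by the median SD of each group, with no test. The median SD of log2(FPKM + 1) within heart groups was 0.290, 0.228 and 0.272 for members at 600 m, 2000 m and 3000 m, against 0.220, 0.157 and 0.172 for eligible genes. In lung the SDs were 0.380, 0.216 and 0.366 for members against 0.201, 0.199 and 0.216, and in muscle they were 0.254, 0.237 and 0.358 against 0.200, 0.234 and 0.229. The gap was widest in lung at 600 m and narrowest in muscle at 2000 m.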

How the data were processed

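Strand-specific RNA libraries were sequenced, and per the labels and the study's methods the authors aligned the reads with TopHat2 2.0.11 and estimated FPKM with Cufflinks 2.2.1. The methods describe these steps for the low- and high-altitude animals only, against the goat reference CHIR_1.0. The deposited values are log2(FPKM + 1) per gene and library, with no read counts, and 2 raised to that value, minus 1, gave back FPKM.

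The members, the lists and the tests were chosen with earlier results of these data known. Groups follow the labels. For every tissue, limma 3.58.1 in R 4.3.3 (lmFit, eBayes with a mean-variance trend) was run on log2(FPKM + 1), a pseudocount of 1, for genes with a mean FPKM above 0.5, with all 3 altitudes in the fit. Tissue contrasts and interactions came from 1 fit over the 9 groups, in which all 26 samples were taken as independent. All p-values are two-sided and were adjusted by Benjamini-Hochberg over all genes tested, with calls at 0.05 or less. The labels do not tie libraries to animals, so p-values measure the spread between these samples only. Relative depth was fitted to the most common ratio of low values in 289 of 351 pairs of libraries (residual SD 0.0389 on the log2 scale). The fits were run on simulated data with independent samples and with changes planted in genes of moderate or high level. Low members and shared goats are not covered by that check.

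The genes named by ID were the 2 with the highest score. Gene lists and marker checks that need gene symbols, planned for the case that a table paired IDs with symbols, were left out. Alternatives were another pseudocount, scaling, filter, the replicate block, fits of the compared altitudes only, replicates kept separate, and each sample left out in turn. One more was added after seeing the data, which left out replicate 1 at 600 m in all tissues together. Figures were drawn with matplotlib 3.10.9.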

Additional observations from a re-analysis of the deposited data

How the results depend on the processing

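The counts called in lung and muscle were sensitive to the processing, and the cause was not tested. In what follows, counts are of members called higher than at 600 m by limma, or of genes chosen in 2 tissues and read in the third. Shares in brackets are of all genes called higher in the same fit, and they moved as well. With a pseudocount of 0.1, genes chosen in heart and muscle gave 5 calls in lung at 3000 m (0.874%). Median-of-ratios scaling gave 5 members in muscle at 3000 m and 2 genes chosen in heart and lung (0.454%). Quantile normalization gave 17 genes read in lung at 2000 m (3.67%), and 63 members stayed among the top 100. With muscle replicates 1 and 2 at 600 m kept separate, 49 and 33 members were called in muscle at 2000 m and 3000 m (4.62% and 3.07%), and 32 and 19 genes chosen in heart and lung. With no filter on low values, 10 and 2 members were called in lung (0.595% and 0.287%) and 3 and 0 in muscle (0.136% and 0.0593%). The genes read in the third tissue then gave 4 and 0 in lung and 3 and 1 in muscle. With only the compared altitudes in the fit, 22 members were called in heart at 3000 m (1.58%), 6 and 0 in lung (0.372% and 0%), and 14 and 0 in muscle (1.18% and 0.0587%). The third-tissue counts were then 17 in heart at 3000 m, 3 and 0 in lung and 7 and 0 in muscle. Where limma called 0 members in these settings, 59 to 69 had an unadjusted p under 0.05, which describes the choice and tests nothing. Where it called 0 genes in the third tissue, 33 to 44 had such a p. In the fits as reported, 26.6% of all genes had such a p in lung at 3000 m and 22.8% in muscle at 3000 m. Leaving out replicate 1 at 600 m in all tissues, chosen after seeing the data, gave 47 and 35 members in lung (5.27% and 3.1%). It gave 37 and 28 genes read in lung in the same fits, and 12 genes read in muscle at 3000 m. In muscle this left 1 sample at 600 m, and the share of all genes called higher rose as well, so nothing is read from that count. The members without overlap in lung were then 79. Leaving out a sample cannot lower that number, and the share of eligible genes was not computed.

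With the replicate number as a block, 3 and 0 members were called in lung at 2000 m and 3000 m and 5 in muscle at 3000 m, and the genes read in the third tissue gave 1 and 0 (lung) and 9 and 2 (muscle). Within a tissue this block joined equal numbers of different populations, which are different goats, so these counts are no correction for animal. In the fit over the 9 groups the block joined equal numbers of 1 altitude across tissues. The share of all genes called higher under the block was 0.0788% at 2000 m and 0% at 3000 m in lung, and 1.15% and 0.361% in muscle. Where limma called 0 under the block, 69 members and 46 genes read in lung had an unadjusted p under 0.05, beside 26.6% of all genes in lung at 3000 m without the block. The block moved no other count by over 1.5 times. Deviations from the group means correlated over genes at 0.0829 to 0.532 between same-numbered heart and lung samples and at -0.465 to 0.174 between others. Each heart sample correlated best with the lung sample of its own number, except replicate 3 at 3000 m (0.0829 against 0.0911). The same-numbered correlations with muscle were 0.259 to 0.319 (heart) and 0.117 to 0.301 (lung) at 600 m and 3000 m. At 2000 m they were -0.330 to 0.0199 and -0.477 to 0.0447. Whether equal numbers in different tissues mark 1 animal was thus not settled. Within a tissue across altitudes, where the samples come from different goats, equal numbers reached at most 0.353.

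With each sample left out in turn, the members called ranged from 63 to 88 and from 0 to 72 in heart at 2000 m and 3000 m, from 0 to 47 and from 0 to 35 in lung, and from 2 to 36 and from 0 to 33 in muscle. The share of all genes called higher ranged from 8.85% to 16.4% and 0.0972% to 9.08% in heart and from 0.0215% to 5.27% and 0% to 3.1% in lung. In muscle, with both 600 m samples kept, it ranged from 0.185% to 2.96% and 0.0839% to 3.03%. The third-tissue counts ranged from 49 to 69 and 0 to 58 (heart), from 0 to 37 and 0 to 28 (lung) and from 0 to 22 and 0 to 17 (muscle). Members without overlap ranged from 78 to 92 in heart, 50 to 79 in lung and 74 to 92 in muscle. Leaving out a sample cannot lower that number, so these ranges are no check of it. With all samples the numbers were 78, 49 and 74, beside 15.1%, 5.7% and 8.75% of eligible genes. The shares of eligible genes with samples left out were not computed. Members with the higher mean at 2000 m than at 3000 m ranged from 73 to 83, 56 to 72 and 42 to 68. Tissue calls ranged from 64 to 70 (heart and lung), 48 to 59 (heart and muscle) and 70 to 78 (lung and muscle). Between 3000 m and 2000 m, 0 members were called in every fit. The list kept 70 members without muscle replicate 3 at 600 m and at most 99. The sign of the difference between 3000 m and 2000 m turned for GOAT_ENSBTAP00000049587 in muscle (-0.024 after median-of-ratios scaling, -0.0146 after quantile normalization, and -0.13 to 0.27 with samples left out, the lowest without replicate 1 at 3000 m). It also turned for GOAT_ENSBTAP00000007931 in heart (-0.33 to 0.12, above 0 without replicate 3 at 3000 m) and lung (-0.44 to 0.22, with 0.22 without replicate 3 at 2000 m and 0.13 without replicate 2 at 3000 m), and for the median member in muscle (-0.13 to 0.089, above 0 without replicate 2 at 3000 m). The unknown depth and groups of 2 or 3 samples limit the precision.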
